A study of Rattus norvegicus with 9 samples.

Results

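The type I interferon response genes followed here are 42 genes of the rat whose transcription rises when a cell senses interferon alpha or beta. They were chosen by symbol from a list of well-known interferon-stimulated genes, with the entry of highest total count taken where a symbol occurred more than once. They are 42 of the 34408 entries of the count table, and all 42 passed the filter on low counts. RNA sequencing had been done on spleen from wild-type rats in 3 groups of 3 libraries. Control rats carry no treatment in the labels. TAA rats were injected intraperitoneally with thioacetamide, a hepatotoxin that scars the liver, in doses 3 days apart of 200 mg/kg over an initial 8 weeks and of 100 mg/kg over the next 8 weeks. TAA+celecoxib rats had the same TAA course and, during its last 8 weeks, 20 mg/kg of celecoxib per day, an inhibitor of cyclooxygenase 2. The labels give no celecoxib-only group, no age and no statement that each library is a separate animal.

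Type I interferons bind the receptor made of Ifnar1 and Ifnar2, whose kinases Jak1 and Tyk2 phosphorylate Stat proteins, Stat2 among them. With Irf9 these form a complex that enters the nucleus and binds a GAAA-repeat element before the induced genes. Many of the products recognise or degrade viral nucleic acid, some feed back on the pathway, and in the spleen plasmacytoid dendritic cells, macrophages and lymphocytes can all respond.

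Levels below are CPM, counts scaled to the same depth with TMM factors, and differences are log2 fold changes from an edgeR quasi-likelihood fit of all 9 libraries. Libraries held 14211789 to 19014761 counts. Of 15954 genes tested, edgeR called 0% at an adjusted p of 0.05 in each of the 3 comparisons. The unadjusted p was under 0.05 for 957 genes in TAA against control, 812 in TAA+celecoxib against TAA and 803 in TAA+celecoxib against control. In that order, 2.85%, 2.63% and 2.96% of genes were higher at this threshold and 3.15%, 2.46% and 2.07% lower. With no difference anywhere, a share of about 0.05 would pass in each comparison. DESeq2 called 53, 25 and 27 genes in the same order, or 0.332%, 0.157% and 0.169%. No difference of a member passed edgeR's adjustment, so members are described by their values in each library and by counts set beside the share of all genes. Both TAA comparisons use the same TAA libraries, so a low TAA group enters both.

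In bulk spleen RNA, fewer cells of a type and less RNA per cell cannot be told apart. The labels give the tissue as spleen and the cell type as splenocytes, and all 4 B cell, 7 T cell and 9 macrophage markers were detected, with the macrophage receptor Marco at 0 in TAA+celecoxib 1. The summed level of the macrophage markers was 2382 to 4360 CPM in control, 4885 to 6803 in TAA and 1880 to 3870 in TAA+celecoxib. T cell markers summed to 771 to 946, 565 to 692 and 656 to 911 CPM in the same order. Control 1 and TAA+celecoxib 1 stood apart from the other 7 libraries, with macrophage scores (mean log2 CPM of the markers) of 6.05 and 5.53, where the others had at least 6.98. TAA 1 and control 1 also held hepatocyte transcripts, at summed levels of 719 and 103 CPM against at most 1.47 CPM elsewhere, and Alb was at 0 in control 2 and TAA+celecoxib 1. The sum of the 6 plasmacytoid dendritic cell markers was 239 to 364 CPM in all libraries, with Siglech, the most specific of them, at 0.959 to 7.74 CPM.

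The element bound by the Stat and Irf complex was looked for in these genes as a description. The members were chosen as known interferon-stimulated genes, so a share above that of all genes was to be foreseen. Promoter windows of RefSeq (assembly GRCr8) were found by symbol for 32 of the 42 genes. In the 250 bases before the gene start, the letters GAAANNGAAA were searched on both strands, where N is any base and the opposite strand reads TTTCNNTTTC. A match stood before 18 of the 32 genes, or 56.2%, and before 3.61% of the 27457 genes with promoter windows. The element was absent from these windows for Stat2, Irf9, Irf1, Herc6, Mx1, Trim25, Oasl, Cmpk2, Samhd1, Parp9, Dtx3l, Ifi35, Sp100 and Helz2, which says only that these letters are not there. No entry was found for Isg15, Usp18, Mx2, Ddx58, Dhx58, Zbp1, Ifit1, Ifit2, Oas2 and Rtp4.

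The next 6 sequences come from genes that were higher in TAA+celecoxib than in TAA at an unadjusted p under 0.05, and show how the element varies in orientation and number. Each is 80 bases, read 5′ to 3′ on the strand of its gene, with the element in capitals. The windows are Eif2ak2 (chr6:21941074-21941153, plus strand), Ifit3 (chr1:241527246-241527325, plus strand) and Ifi44 (chr2:243303841-243303920, minus strand). The others are Ifi44l (chr2:243328613-243328692, plus strand), Oas1a (chr12:41330386-41330465, plus strand) and Irf7 (chr1:205800048-205800127, minus strand).
Eif2ak2: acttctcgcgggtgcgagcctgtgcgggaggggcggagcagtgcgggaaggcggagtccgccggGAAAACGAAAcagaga
Ifit3: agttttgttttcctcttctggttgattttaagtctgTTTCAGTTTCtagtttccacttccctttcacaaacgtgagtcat
Ifi44: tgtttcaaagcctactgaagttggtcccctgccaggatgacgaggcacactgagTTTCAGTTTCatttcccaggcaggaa
Ifi44l: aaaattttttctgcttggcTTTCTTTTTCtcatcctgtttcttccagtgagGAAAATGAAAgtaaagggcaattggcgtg
Oas1a: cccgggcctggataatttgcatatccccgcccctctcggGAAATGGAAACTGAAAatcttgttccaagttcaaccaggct
Irf7: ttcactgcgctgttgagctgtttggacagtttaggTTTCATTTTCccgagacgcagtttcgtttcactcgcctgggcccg
Eif2ak2 held the element 16 bases before its start and Ifit3 at 44 bases. Ifi44l held 2 separate copies, 1 on each strand, and Oas1a held 2 copies that overlap by 4 letters.

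The next 3 sequences come from genes that hold the same element: Bst2, Rsad2 and Gbp2. Each had an unadjusted p above 0.05 in TAA+celecoxib against TAA. They were not the only ones with the element to do so, as Oas3, Gbp5 and Ifi27 did too. Their windows are Bst2 (chr16:18255051-18255130, minus strand), Rsad2 (chr6:48788223-48788302, minus strand) and Gbp2 (chr2:234005647-234005726, plus strand).
Bst2: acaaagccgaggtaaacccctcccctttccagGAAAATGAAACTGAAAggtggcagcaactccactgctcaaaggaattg
Rsad2: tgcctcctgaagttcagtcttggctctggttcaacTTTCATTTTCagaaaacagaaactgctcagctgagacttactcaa
Gbp2: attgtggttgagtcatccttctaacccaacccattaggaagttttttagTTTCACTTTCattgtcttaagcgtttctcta
Bst2 held 2 overlapping copies, 131 and 125 bases before its start. Of the 18 genes with a match, 8 had an unadjusted p under 0.05 and were higher in TAA+celecoxib than in TAA, and of the 14 without a match 6 did, against 2.63% of all genes tested. The median log2 difference of that comparison was 0.51 with a match and 0.33 without.

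By length-scaled level (mean FPKM over the 9 libraries), the most abundant transcripts were Ifi27 at 354, Irf7 at 199, Bst2 at 144 and Mx1 at 106. The least abundant were Oas2 at 3.82 and Oas3 at 4.21. The other 36 members lay between 9.64 (Ifit1) and 83.4 (Lgals3bp).

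TAA against control asks what a cirrhosis-inducing course did to the spleen. Most members were lower in the TAA spleens, led by the nucleic acid sensor Zbp1, by Ifi44, the Mx GTPases and the ISG15 system. Fitted values were lower for 35 of 42 members, where 49.8% of all genes were lower and 50.2% higher. The median log2 difference was -0.26 over members and 0.0017 over all genes tested. At an unadjusted p under 0.05, 9 members were lower and 0 higher, against 3.15% and 2.85% of all genes: Zbp1, Ifi44, Mx2, Dhx58, Herc6, Mx1, Isg15, Epsti1 and Bst2. All 3 TAA libraries lay below all 3 controls for 12 members and above them for 0, against 7.89% and 6.94% of all genes. The smallest adjusted p of a member was 0.788 by edgeR, and DESeq2 called 0 members, where it called 0.332% of all genes. Neutrophil markers moved with the comparison: all 6 were fitted higher in TAA, 5 of them with an unadjusted p under 0.05 and groups that did not overlap, and 2 called by DESeq2, with a median log2 difference of 2.21. They summed to 95.9 to 374 CPM in control, 452 to 2108 in TAA and 314 to 743 in TAA+celecoxib. Of 7 T cell markers, 6 were lower in TAA without overlap, and 5 had an unadjusted p under 0.05. Their median log2 difference was -0.77, and DESeq2 called 1. All 9 macrophage markers were fitted higher, 5 without overlap and 1 with an unadjusted p under 0.05, at a median of 0.67. The part of these cell types in the members' levels was not tested. With 1 library left out, 3 members had an unadjusted p under 0.05 without control 1 or without TAA 3, and 4 without control 2, TAA 1 or TAA 2. Shares of all genes in these smaller fits are not given here, so the drop may not be particular to the members.

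The second comparison, TAA+celecoxib against TAA, addresses the effect of celecoxib on top of TAA. Most members were higher with celecoxib: 39 of 42 had higher fitted values, where 51.2% of all genes were higher and 48.8% lower. The median log2 difference was 0.56 over members and 0.0071 over all genes. At an unadjusted p under 0.05, 20 members were higher and 0 lower, against 2.63% and 2.46% of all genes. In order of p these were Mx2, Zbp1, Mx1, Herc6, Eif2ak2, Ifit3, Dhx58, Ifi44, Xaf1, Oasl, Usp18, Ifi44l, Oas1a, Isg15, Ifit2, Oasl2, Irf9, Sp100, Irf7 and Dtx3l. For 21 members all TAA+celecoxib libraries lay above all TAA libraries, and for 1, Bst2, below them, against 5.87% and 5.03% of all genes. The smallest adjusted p of a member was 0.89 by edgeR. DESeq2 called 2 members, Mx2 (adjusted p = 0.00996) and Zbp1 (adjusted p = 0.0270), both higher, where it called 0.157% of all genes. Without TAA+celecoxib 1, the library with few macrophage transcripts, 13 members had an unadjusted p under 0.05 and the median was 0.43. A share of all genes for the fit without that library is not given here. All 9 macrophage markers were fitted lower with celecoxib, 5 without overlap and 4 with an unadjusted p under 0.05, at a median of -0.89. Of 7 T cell markers, 6 were fitted higher, 2 without overlap and 3 with an unadjusted p under 0.05, and DESeq2 called 1. All 6 neutrophil markers were fitted lower, 1 with an unadjusted p under 0.05. The part of these cell types in the members' levels was not tested.

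TAA+celecoxib against control asks how far the treated spleens lay from untreated ones. Fitted values were higher for 36 of 42 members, where 50.2% of all genes were higher and 49.8% lower, and the median was 0.29. At an unadjusted p under 0.05, 4 members were higher (Oasl, Rsad2, Irf9 and Lgals3bp) and 1 lower (Bst2), against 2.96% and 2.07% of all genes. Groups did not overlap for Oasl, which was higher, and Bst2, which was lower, against 5.27% and 4.42% of all genes. The smallest adjusted p of a member was 0.911 by edgeR. Without control 1 and TAA+celecoxib 1 together the median was 0.04 and 2 members had an unadjusted p under 0.05. Leaving out only TAA+celecoxib 3 gave 17 members and a median of 0.51. Leaving out only control 3 gave 1 member, TAA+celecoxib 2 gave 2 and TAA 1 gave 3, and without TAA+celecoxib 1 the median was 0.11. Shares of all genes in these fits are not given here, so the changed counts may not be particular to the members.

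**Figure D1:**
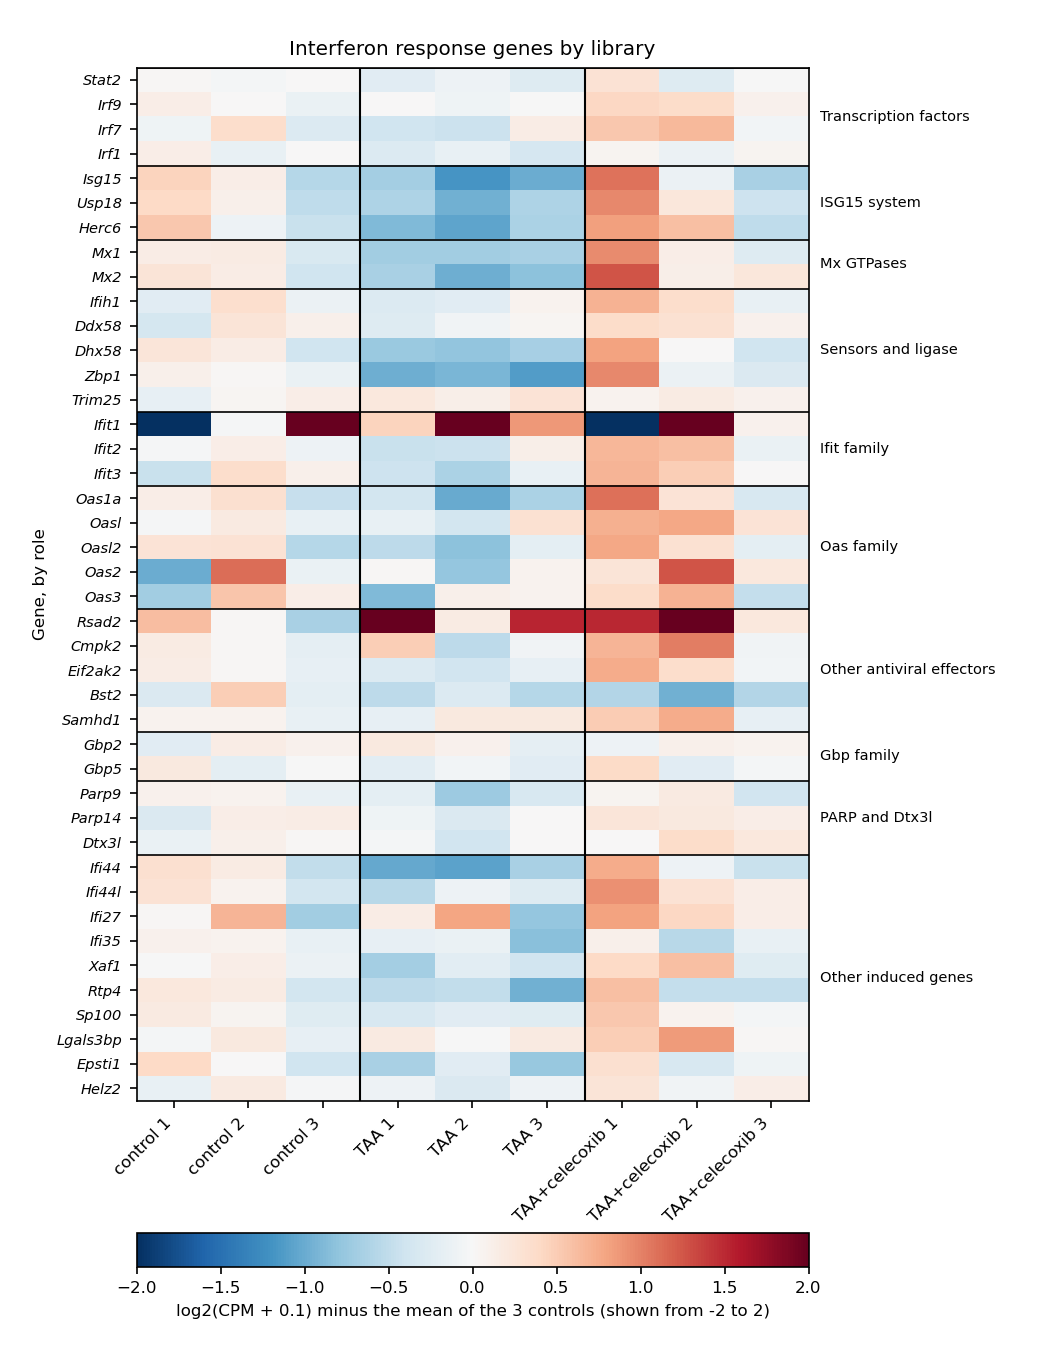
Rows are the 42 genes grouped by role and columns the 9 libraries. Colour is log2(CPM + 0.1) minus the mean of the 3 controls, limited to -2 to 2. Blue fills much of the 3 TAA columns and, apart from Ifit1 and Rsad2, red is most frequent in TAA+celecoxib 1, while TAA+celecoxib 3 is close to the controls.

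The libraries within the TAA+celecoxib group differed. The median log2 difference of the members from the control mean was 0.54 in TAA+celecoxib 1, 0.28 in TAA+celecoxib 2 and -0.05 in TAA+celecoxib 3. It was -0.27, -0.29 and -0.21 in TAA 1, 2 and 3. It was 0.08, 0.13 and -0.15 in control 1, 2 and 3. Thus TAA+celecoxib 3 lay above every TAA library and within the range of the controls, and the other two lay above every control. TAA+celecoxib 1 had the highest level of 25 members, TAA+celecoxib 2 of 12 and TAA+celecoxib 3 of 0. TAA 2 had the lowest level of 17 members, TAA 1 of 8 and TAA 3 of 7. A low macrophage score was shared by control 1 and TAA+celecoxib 1, whose member medians were 0.08 and 0.54. TAA+celecoxib 2, with a macrophage score of 6.98, had 0.28. The part of macrophage transcripts in these medians was not tested. Relations of single members to the macrophage score are given with those of Rsad2 to the erythroid score.

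The first group by role is the transcription factors of the response. Irf7, which drives a second wave of interferon alpha transcription, was at 350, 473 and 307 CPM in control 1 to 3. The TAA libraries held 280, 276 and 413 CPM and the TAA+celecoxib libraries 540, 579 and 358 CPM. TAA 3 lay above TAA+celecoxib 3, so the groups overlapped, and the log2 difference between them was 0.61 ± 0.248 (SE; adjusted p = 0.89 by edgeR). The difference was 0.54 without TAA+celecoxib 1, and its unadjusted p was above 0.05.

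Irf9, the DNA-binding part of the Stat complex, was at 95.2, 87.6 and 79.2 CPM in control, 87.6, 82.1 and 86.3 in TAA and 116, 112 and 92.8 in TAA+celecoxib. The celecoxib libraries lay above the TAA ones with no overlap, and the log2 difference was 0.33 ± 0.12 (adjusted p = 0.89 by edgeR). It was 0.26 without TAA+celecoxib 1, with an unadjusted p above 0.05. TAA and control overlapped for Irf9. Its partner Stat2 was at 202, 193 and 200 CPM in control, 169, 185 and 165 in TAA and 243, 165 and 196 in TAA+celecoxib. All TAA libraries were below the controls for Stat2, while TAA+celecoxib 2 was as low as the lowest TAA library.

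Irf1, a factor induced by interferon gamma as well, was at 188, 153 and 172 CPM in control, 142, 154 and 135 in TAA and 177, 157 and 176 in TAA+celecoxib. Its celecoxib libraries lay above the TAA ones by a narrow margin, with a log2 difference of 0.24 ± 0.115 and an unadjusted p above 0.05. Of these 4 factors, 2 had an unadjusted p under 0.05 between the TAA groups, where 2.63% of all genes were higher and 2.46% lower. Between TAA and control it was 0 of the 4, where 2.85% of all genes were higher and 3.15% lower.

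The ISG15 system attaches a ubiquitin-like protein to others. Isg15, the modifier itself, was at 61.4, 49.0 and 30.0 CPM in control, 27.9, 19.7 and 22.5 in TAA and 95.1, 41.2 and 28.7 in TAA+celecoxib. Every TAA library was below every library of the other groups, although TAA+celecoxib 3 exceeded TAA 1 by little. The log2 difference of TAA from control was -1.003 ± 0.43 (adjusted p = 0.788 by edgeR). That of TAA+celecoxib from TAA was 1.24 ± 0.432 (adjusted p = 0.89). Leaving out TAA+celecoxib 1 gave 0.58, with an unadjusted p above 0.05.

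Usp18, the protease that removes ISG15 and dampens receptor signalling, followed Isg15. It was at 67.6, 54.9 and 36.2 CPM in control, 33.5, 26.4 and 33.3 in TAA and 100, 59.8 and 38.3 in TAA+celecoxib. Herc6, the main ISG15 ligase in mice, was at 96.2, 61.9 and 48.8 CPM in control, 35.9, 31.7 and 42.5 in TAA and 117, 101 and 46.5 in TAA+celecoxib. For both genes the TAA libraries were the 3 lowest. Their log2 differences of TAA+celecoxib from TAA were 1.09 ± 0.345 and 1.26 ± 0.354 (adjusted p = 0.89 for each by edgeR). Without TAA+celecoxib 1 they were 0.66 and 1.003, both still under an unadjusted p of 0.05.

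The Mx proteins are dynamin-like GTPases that trap viral nucleoprotein. Mx1 was at 406, 409 and 296 CPM in control, 226, 226 and 235 in TAA and 703, 401 and 306 in TAA+celecoxib. Mx2 (ENSRNOG00000001963, chromosome 11, 38035450 to 38059950 on the plus strand, in the files' coordinates) was at 206, 191 and 131 CPM in control, 110, 87.7 and 98.0 in TAA and 411, 187 and 202 in TAA+celecoxib. The TAA libraries were the 3 lowest for both, and TAA+celecoxib 1 was the highest. TAA means were 229 ± 5.22 CPM (SD, n = 3) for Mx1 and 98.5 ± 11.1 CPM for Mx2.

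The log2 difference of TAA from control was -0.70 ± 0.279 for Mx1 and -0.84 ± 0.305 for Mx2 (adjusted p = 0.788 for each by edgeR). That of TAA+celecoxib from TAA was 1.04 ± 0.28 for Mx1 and 1.44 ± 0.309 for Mx2 (adjusted p = 0.89 for each). Without TAA+celecoxib 1 these were 0.63 and 0.98, both still under an unadjusted p of 0.05. Mx1 and Mx2 are near-identical in parts and could share reads.

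**Figure D2:**
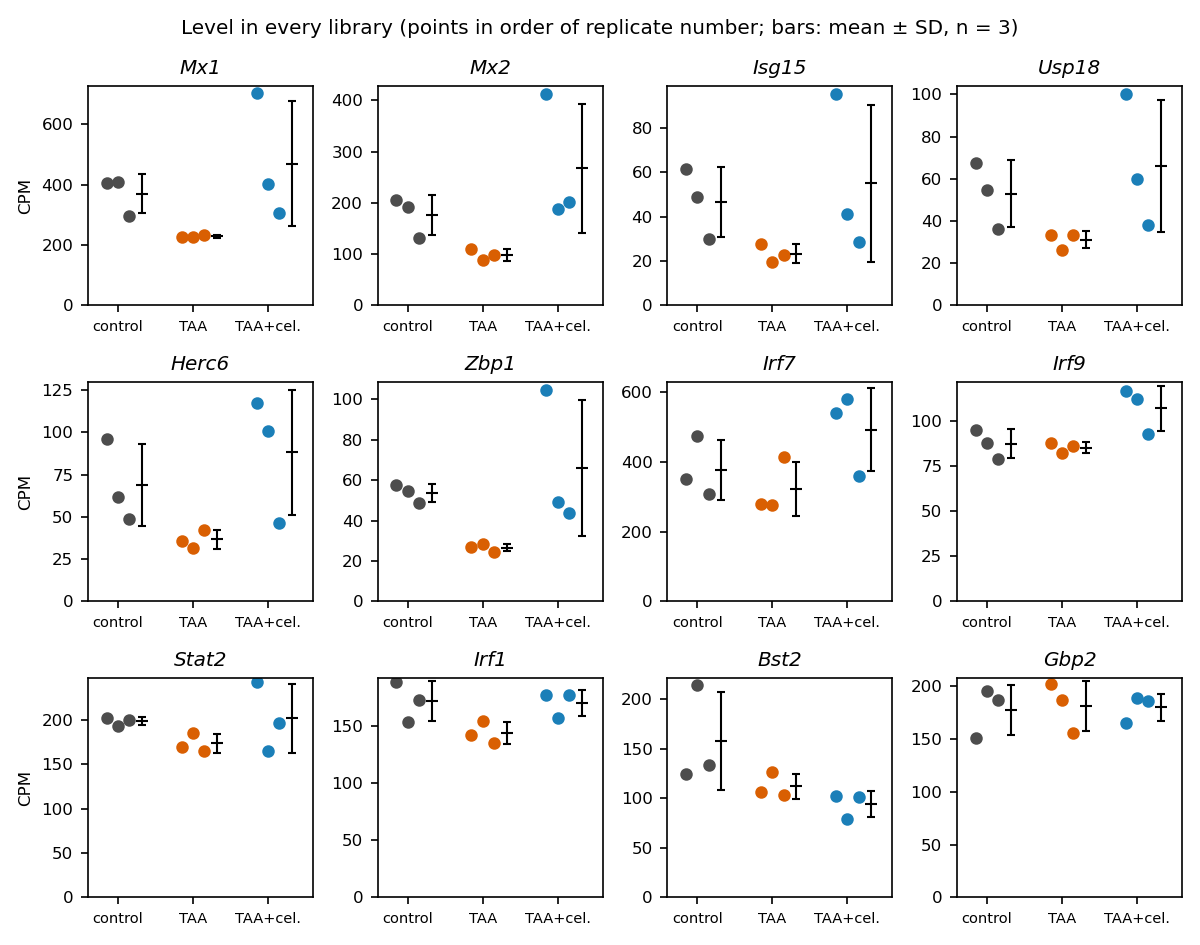
Points are CPM of 12 members in each library, in order of replicate number within a group, with the mean and SD of 3 libraries beside them. TAA+cel. is TAA+celecoxib. For Mx1, Mx2, Isg15, Usp18, Herc6 and Zbp1 the 3 TAA points are the lowest, while Gbp2 shows no separation and Bst2 is lowest in TAA+celecoxib.

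Among the sensors, Zbp1 (ENSRNOG00000006314, chromosome 3, 171276062 to 171286537 on the minus strand) binds Z-form nucleic acid and can start cell death. It was at 57.7, 54.5 and 48.8 CPM in control, 27.1, 28.2 and 24.5 in TAA and 105, 49.2 and 43.9 in TAA+celecoxib. The TAA libraries were separated from all others. The log2 difference of TAA from control was -1.01 ± 0.297 (adjusted p = 0.788 by edgeR). That of TAA+celecoxib from TAA was 1.31 ± 0.298 (adjusted p = 0.89). It was 0.81 without TAA+celecoxib 1, still under an unadjusted p of 0.05.

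Dhx58, known as LGP2, a regulator of the RNA helicase sensors, was at 58.6, 55.3 and 37.8 CPM in control, 29.6, 28.7 and 31.3 in TAA and 86.7, 49.8 and 37.7 in TAA+celecoxib. It too was lowest in the 3 TAA libraries, with a log2 difference of TAA from control of -0.76 ± 0.291 (adjusted p = 0.788 by edgeR). Of the helicases themselves, Ifih1, known as MDA5, was at 51.7, 76.1 and 55.5 CPM in control, 49.9, 51.6 and 63.3 in TAA and 97.4, 77.3 and 54.4 in TAA+celecoxib. Its groups overlapped in all 3 comparisons. Ddx58, known as RIG-I, ranged from 23.5 CPM in control 1 to 39.1 CPM in TAA+celecoxib 1.

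Trim25, a ubiquitin ligase that acts on RIG-I, was one of the 7 members fitted higher in TAA. It was at 58.4, 66.6 and 71.1 CPM in control, 75.2, 71.0 and 78.4 in TAA and 68.1, 72.8 and 69.1 in TAA+celecoxib. Its groups overlapped, with log2 differences of 0.20 ± 0.105 (TAA against control) and -0.10 ± 0.105 (TAA+celecoxib against TAA), neither under an unadjusted p of 0.05.

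The Ifit proteins bind foreign RNA ends. Ifit3 was at 55.2, 95.3 and 80.2 CPM in control, 56.3, 48.6 and 67.9 in TAA and 120, 106 and 75.3 in TAA+celecoxib. Ifit2 was at 54.0, 59.8 and 50.8 CPM in control, 40, 40.5 and 59.1 in TAA and 87.1, 83.3 and 50.0 in TAA+celecoxib. For Ifit3 the celecoxib libraries were all above the TAA libraries, while for Ifit2 they overlapped. The log2 differences were 0.80 ± 0.24 and 0.66 ± 0.231 (adjusted p = 0.89 for each by edgeR). Without TAA+celecoxib 1 they were 0.65 and 0.52, and the unadjusted p of Ifit2 was then above 0.05.

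Ifit1, which lies near both on chromosome 1, behaved otherwise. It had 3, 44 and 419 counts in control 1 to 3, 48, 270 and 89 in TAA and 4, 1758 and 47 in TAA+celecoxib. In CPM these were 0.185, 2.45 and 23.8, then 3.41, 18.5 and 4.65, then 0.253, 123 and 2.65. Each group thus held both low and high libraries. The fitted difference of TAA+celecoxib from TAA, 2.25, is the top of the members' range and rests on TAA+celecoxib 2. Reads of Ifit1 and of near-identical copies could have been split, and strand use in the counting is not known.

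The Oas enzymes make short oligoadenylates that switch on RNase L, and the Oasl proteins are related to them. Oasl2 was at 75.9, 76.7 and 42.5 CPM in control, 43.6, 35.3 and 55.0 in TAA and 107, 77.8 and 54.6 in TAA+celecoxib. Oasl was at 37.4, 43.3 and 34.5 CPM in control, 34.6, 29.5 and 47.1 in TAA and 62.4, 65.3 and 46.1 in TAA+celecoxib. Both overlapped between the TAA groups, at TAA 3 and TAA+celecoxib 3.

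Oasl was the only member whose celecoxib libraries all lay above all controls, with a log2 difference of 0.59 ± 0.202 (adjusted p = 0.911 by edgeR). Against TAA the differences were 0.64 ± 0.202 for Oasl and 0.84 ± 0.303 for Oasl2. Without TAA+celecoxib 1 they were 0.59 and 0.57, and the unadjusted p of Oasl2 was then above 0.05. Oas1a ranged from 17.7 CPM in TAA 2 to 76.7 CPM in TAA+celecoxib 1, without overlap between the TAA groups. Oas2 (4.56 to 22.0 CPM) and Oas3 (6.54 to 19.8 CPM) were the members of lowest FPKM and had no unadjusted p under 0.05 in any comparison. Members of this family are similar in sequence, so reads could be shared among them.

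Of the other antiviral effectors, Eif2ak2, the kinase PKR that halts translation, followed the whole set best. It was at 114, 105 and 92.5 CPM in control, 85.6, 79.5 and 93.0 in TAA and 173, 132 and 100 in TAA+celecoxib. Its correlation over the 9 libraries with the mean log2 CPM of the other members was r = 0.92, a description that shares library scaling. The TAA+celecoxib libraries were all above the TAA libraries. Samhd1, which degrades deoxynucleotides, was at 120, 120 and 103 CPM in control, 102, 131 and 131 in TAA and 163, 192 and 102 in TAA+celecoxib, with overlap throughout.

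Bst2 (ENSRNOG00000059900, chromosome 16, 19938784 to 19942353 on the minus strand) is known as tetherin and holds budding virions at the cell surface. It was at 125, 215 and 134 CPM in control, 107, 127 and 103 in TAA and 102, 78.8 and 101 in TAA+celecoxib. The celecoxib libraries were the 3 lowest, though TAA+celecoxib 1 and TAA 3 differed by little. The log2 difference from control was -0.75 ± 0.215 (adjusted p = 0.911 by edgeR) and from TAA -0.25 ± 0.215, with an unadjusted p above 0.05. That of TAA from control was -0.49 ± 0.215 (adjusted p = 0.788), with TAA 2 above control 1. By mean, Bst2 was highest in control, then TAA, then TAA+celecoxib, at 158 ± 49.6, 112 ± 12.7 and 94.1 ± 13.2 CPM (SD, n = 3).

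Rsad2 (ENSRNOG00000007539, chromosome 6, 45655954 to 45669148 on the minus strand) is known as viperin and makes a chain-terminating nucleotide. It was the member with the highest fitted difference of TAA from control. It was at 76.6, 50.7 and 31.7 CPM in control, 210, 55.6 and 143 in TAA and 142, 379 and 57.5 in TAA+celecoxib. TAA 2 and TAA+celecoxib 3 lay within the control range, so the groups overlapped in every comparison. Its log2 difference of TAA from control was 1.36 ± 0.69, with an unadjusted p above 0.05, and of TAA+celecoxib from control 1.86 ± 0.70 (adjusted p = 0.911 by edgeR). That of TAA+celecoxib from TAA was 0.50 ± 0.678, and -0.45 without TAA+celecoxib 2.

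Rsad2 tracked erythroid transcripts across the 9 libraries. The erythroid score (mean log2 CPM of Slc4a1, Alas2, Sptb and Ahsp) was 7.07, 5.81 and 3.86 in control 1 to 3, 9.30, 6.27 and 8.08 in TAA and 7.99, 9.52 and 6.62 in TAA+celecoxib. The rank order of Rsad2 was that of the score in all 9 libraries. Spearman's rho was 1 (exact permutation p = 5.51e-06, 2-sided, the smallest that 362880 pairings can give; adjusted p = 0.00231 over 420 relations of 42 members with 10 cell type scores). Pearson's r was 0.96 (exact permutation p = 3.58e-05, adjusted p = 0.0150), and 0.98 without the 2 libraries farthest from the median score. It was the only relation of the 420 with an adjusted p under 0.05, by either measure. The pairings were permuted over all 9 libraries without regard to group. Group differences that a gene and a score share therefore enter every p-value of the 420 relations.

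A further 15 relations lay just past that limit, with an adjusted p of 0.0527 to 0.0530 for Pearson's r by the exact permutation test and of at least 0.105 for Spearman's rho. Of these, 7 were with the macrophage score, and all were negative: Zbp1, Gbp5, Sp100, Rtp4, Epsti1, Dhx58 and Isg15 had an r of -0.93 to -0.85. Without control 1 and TAA+celecoxib 1, the libraries farthest from the median macrophage score, these r values were -0.78 to -0.45. The T cell score gave 5, positive for Epsti1, Irf1, Stat2 and Rtp4 and negative for Trim25. The B cell score gave 2, positive for Stat2 and Gbp5, and the neutrophil score 1, positive for Trim25.

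The summed erythroid markers were at 94.2 to 597 CPM in control, 336 to 2997 in TAA and 446 to 3433 in TAA+celecoxib. Their part in the level of Rsad2 between groups was not tested. Cmpk2, a mitochondrial nucleotide kinase whose gene lies beside Rsad2 on chromosome 6, was at 50.4, 46.1 and 39.7 CPM in control, 63.7, 31.4 and 43.2 in TAA and 72.5, 92.3 and 43.1 in TAA+celecoxib. Its r with the erythroid score was 0.73 (exact permutation p = 0.0238, adjusted p = 0.196) and its rho 0.75 (exact permutation p = 0.0255, adjusted p = 0.353).

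**Figure D3:**
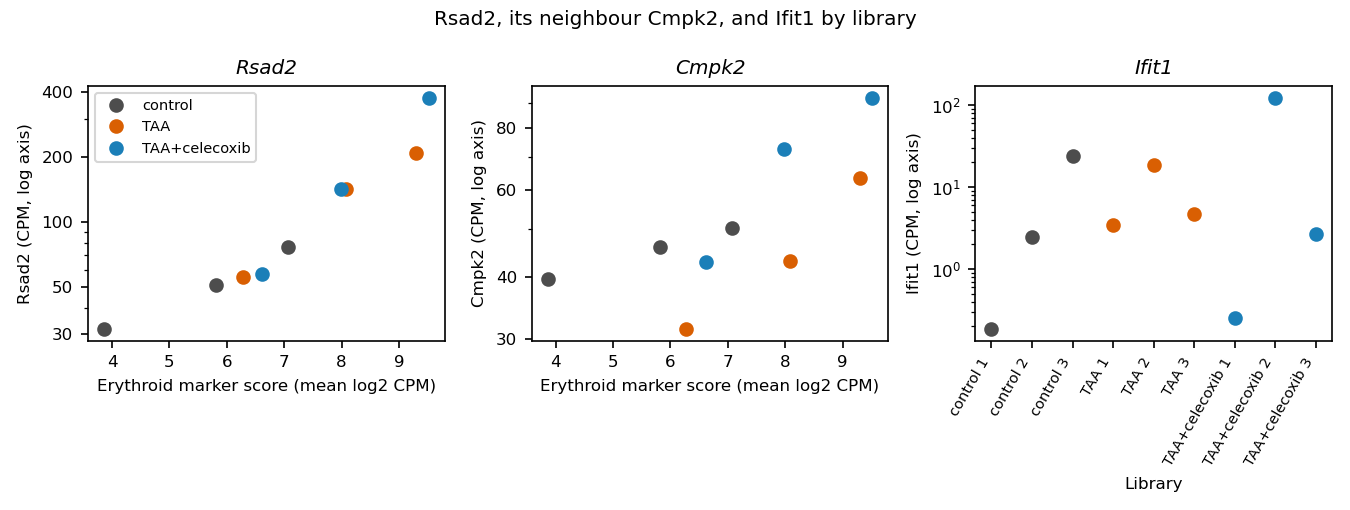
The left and middle panels plot Rsad2 and its neighbour Cmpk2 (CPM, log axis) against the erythroid marker score (mean log2 CPM), 1 point per library coloured by group. The right panel plots Ifit1 by library on a log axis, from 0.185 CPM in control 1 to 123 CPM in TAA+celecoxib 2. Rsad2 rises with the score without exception across the 9 points, Cmpk2 with exceptions.

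The guanylate-binding proteins, GTPases that attack pathogen vacuoles and respond strongly to interferon gamma, separated least. Gbp2 was at 151, 195 and 187 CPM in control, 202, 187 and 156 in TAA and 165, 189 and 186 in TAA+celecoxib. Its log2 difference of TAA+celecoxib from TAA was -0.01 ± 0.142. Gbp5 was at 83.5, 63.9 and 72.4 CPM in control, 62.9, 70.4 and 61.9 in TAA and 94.9, 62.4 and 70.8 in TAA+celecoxib, with a log2 difference of 0.22 ± 0.17 that was 0.03 without TAA+celecoxib 1. Neither had an unadjusted p under 0.05 in any comparison, and their groups overlapped in each.

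Parp14 and Parp9 are ADP-ribosyl transferases, and Dtx3l is the ubiquitin ligase paired with Parp9. Parp14 was at 164, 220 and 222 CPM in control, 189, 163 and 202 in TAA and 237, 230 and 219 in TAA+celecoxib. Parp9 was at 142, 141 and 121 CPM in control, 118, 81.4 and 108 in TAA and 140, 152 and 103 in TAA+celecoxib. Parp14 was without overlap between the TAA groups (log2 difference 0.31 ± 0.144, unadjusted p above 0.05), and Parp9 without overlap between TAA and control. Dtx3l, from 51.1 CPM in TAA 2 to 86.1 CPM in TAA+celecoxib 2, was the member of this trio with an unadjusted p under 0.05 between the TAA groups.

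Among the remaining induced genes, Ifi44, a GTP-binding-like antiviral protein, was at 107, 95.9 and 60.3 CPM in control, 42.1, 40.4 and 54.5 in TAA and 143, 79.0 and 62.3 in TAA+celecoxib. Its TAA libraries were the 3 lowest, with a log2 difference of TAA from control of -0.94 ± 0.323 (adjusted p = 0.788 by edgeR). Ifi44l, its neighbour on chromosome 2, ranged from 22.7 CPM in TAA 1 to 62.4 CPM in TAA+celecoxib 1. Both held the element printed above.

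Ifi27, a mitochondrial protein with the highest FPKM of the members, was at 240, 379 and 147 CPM in control, 262, 410 and 139 in TAA and 413, 318 and 260 in TAA+celecoxib. Its spread within control and TAA exceeded any difference between groups. Helz2, a helicase coactivator, was at 168, 211 and 183 CPM in control, 174, 153 and 173 in TAA and 222, 177 and 205 in TAA+celecoxib, with the TAA+celecoxib libraries above the TAA ones by a narrow margin. Ifi35 was at 104, 103 and 88.3 CPM in control, 88.2, 89.9 and 55.3 in TAA and 105, 66.9 and 88.2 in TAA+celecoxib, and its groups overlapped.

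The other members of this group were Xaf1 (16.9 to 41.3 CPM), Rtp4 (31.9 to 94.4 CPM), Sp100 (30.6 to 55.8 CPM), Epsti1 (57.7 to 128 CPM) and Lgals3bp (142 to 285 CPM). The lowest level was in a TAA library for 4 of these 5, and for Lgals3bp in control 3. Epsti1 was at 128, 97.4 and 73.4 CPM in control against 61.7, 82.9 and 57.7 CPM in TAA, and was among the 9 members with an unadjusted p under 0.05 there. Its r was 0.93 with the T cell score and -0.88 with the macrophage score, both among the 15 relations just past the limit. The T cell score was 6.92, 6.66 and 6.53 in control 1 to 3, 6.08, 6.25 and 5.86 in TAA and 6.92, 6.20 and 6.70 in TAA+celecoxib.

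**Figure D4:**
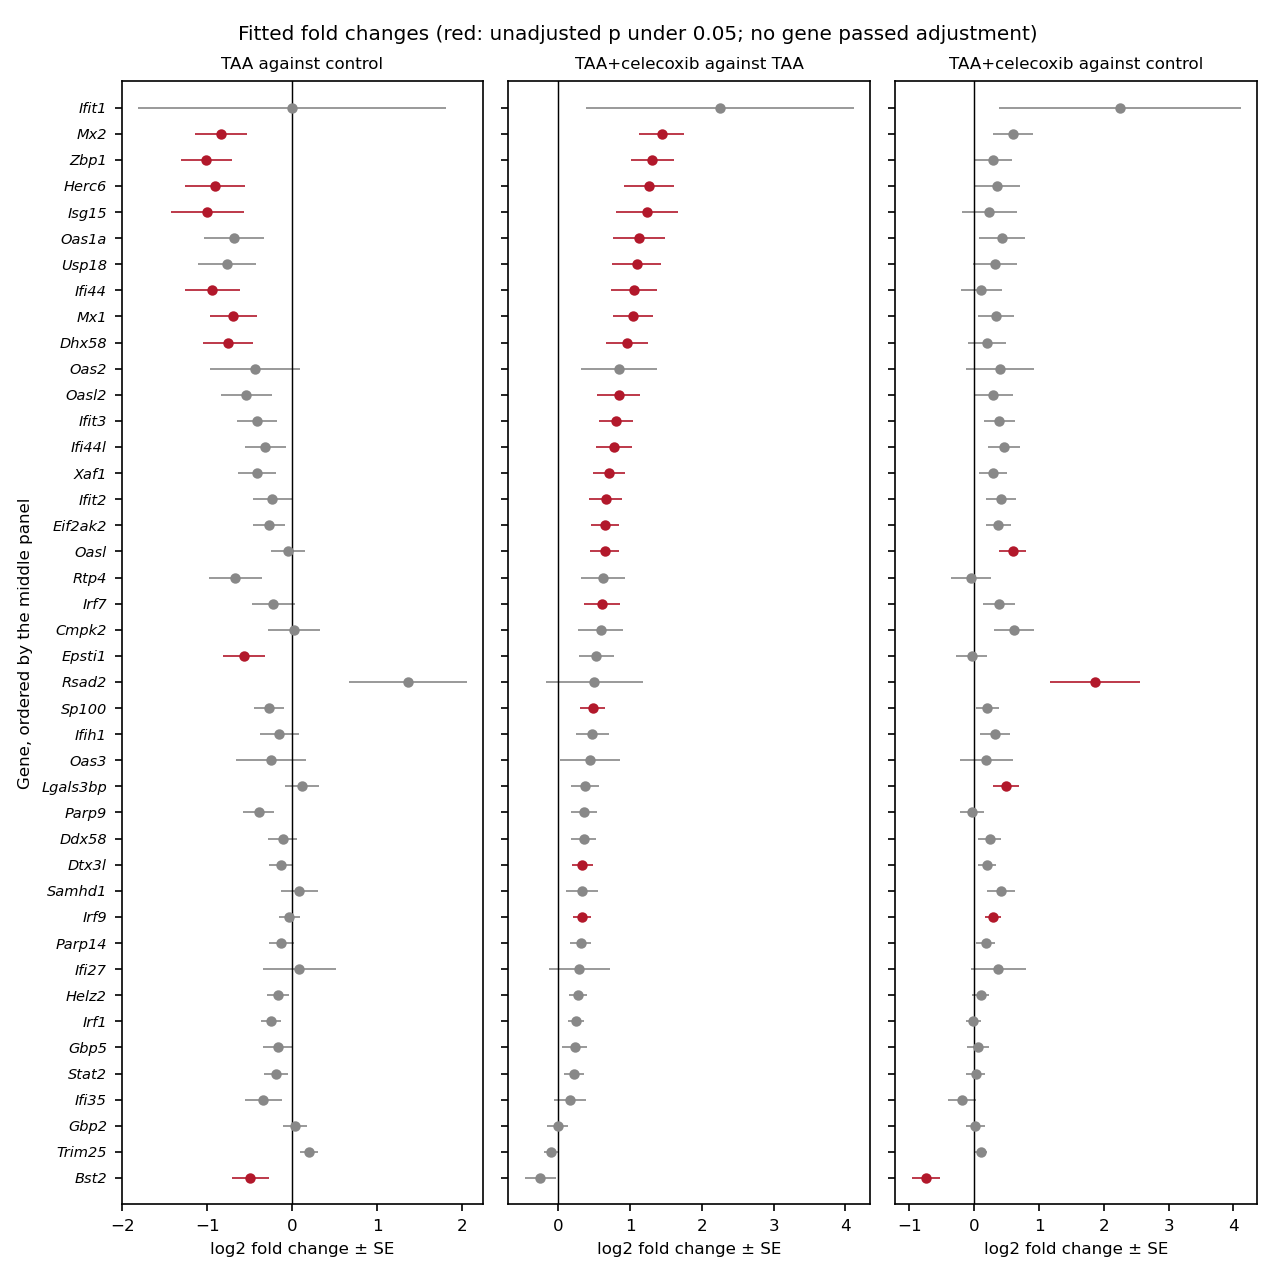
Points are fitted log2 fold changes of the 42 members with bars of 1 SE, in 3 panels for the 3 comparisons, ordered by TAA+celecoxib against TAA. Red marks an unadjusted p under 0.05: 9 genes in the left panel, 20 in the middle and 5 in the right. The left and middle panels share the TAA libraries.

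The members did not vary as a single block. Over the 9 libraries, 25 of 42 correlated with the mean of the other members at r above 0.7, led by Eif2ak2, Ifit2 (0.92), Xaf1 (0.91), Oas1a and Irf7 (both 0.90). What share of all genes passed that r is not given here, and genes outside the interferon lists passed it too. At the other end Gbp2, Bst2, Trim25 and Ifit1 had an r of -0.08, -0.19, -0.26 and -0.28. Outside the interferon lists, the gene most like the member mean of 11568 genes with at least 5 CPM was Samd9, an interferon-inducible antiviral factor, at r = 0.95. The 7 that followed were Mrps22, Gpbp1, Angel2, Zfp128, LOC500584, Dynlt1 and Ccdc112, with r from 0.89 to 0.95. These are descriptions over libraries that share their scaling.

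Upstream of the members, interferon transcripts themselves were near the detection limit. Ifna1, Ifna2, Ifna5, Ifna11, Ifnl1 and Ifnl3 had 0 counts in all 9 libraries, where 0 counts allow up to 0.158 to 0.211 CPM per library. Ifnb1 had 0 to 3 counts per library and 9 in all. A change in these ligands was not detectable at this depth. Ifng, the type II interferon, had 1 to 16 counts per library, passed the filter on low counts and was tested. Control libraries held 0.863, 0.612 and 0.797 CPM of Ifng, TAA libraries 0.639, 0.342 and 0.0522, and TAA+celecoxib libraries 0.570, 0.491 and 0.902. The groups overlapped, with the lowest value, from 1 count, in TAA 3. The log2 difference was -1.17 ± 0.675 in TAA against control (adjusted p = 0.788 by edgeR) and 0.97 ± 0.681 in TAA+celecoxib against TAA (adjusted p = 0.89 by edgeR). Without TAA 3 these were -0.62 and 0.42.

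The receptor and its kinases were well measured and close to level. Ifnar1 was at 136 to 155 CPM in control, 154 to 190 in TAA and 143 to 192 in TAA+celecoxib. Ifnar2 lay between 38.3 and 52.2 CPM, Jak1 between 494 and 686 CPM and Tyk2 between 93.2 and 117 CPM over all libraries, with overlap between groups.

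Of 15 further nucleic acid sensing genes tested, 2 were higher in TAA+celecoxib than in TAA at an unadjusted p under 0.05 and 0 lower. The shares of all genes were 2.63% and 2.46%. Tlr3, the endosomal receptor of double-stranded RNA, was at 55.7, 48.1 and 47.1 CPM in control, 33.7, 34.3 and 38.4 in TAA and 57.5, 50.0 and 58.8 in TAA+celecoxib. Its TAA libraries were the 3 lowest, and DESeq2 called it in both TAA comparisons, which share those libraries. Mavs, the adaptor of the RNA helicases, was lowest in the TAA libraries at 34.5, 42.3 and 43.0 CPM, with 64.7, 49.9 and 47.8 CPM after celecoxib.

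Of 11 inhibitors tested, 1 was higher and 1 lower between the TAA groups at that threshold, against 2.63% and 2.46% of all genes. Socs3, a brake on cytokine receptor kinases, was at 24.5, 21.6 and 22.2 CPM in control, 24.4, 25.2 and 32.8 in TAA and 19.3, 14.8 and 16.5 in TAA+celecoxib, where its libraries were the 3 lowest. Adar, which edits double-stranded RNA, was at 195, 177 and 169 CPM in TAA+celecoxib, above the 152, 142 and 149 CPM of the TAA libraries.

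A list of 16 genes better known from the interferon gamma response also holds the receptor subunits Ifngr1 and Ifngr2. Of these 16, 3 were higher and 0 lower between the TAA groups at that threshold, against 2.63% and 2.46% of all genes. Their median log2 difference was 0.06, where the members had 0.56. Irgm and Igtp, GTPases of that response, were at 47.2 to 59.6 and 133 to 144 CPM in TAA+celecoxib, above the 36.4 to 40.7 and 116 to 117 CPM of the TAA libraries. Of 37 other interferon-stimulated genes tested, a list that also holds Adar, 10 were higher and 2 lower, against the same 2.63% and 2.46%. Their median was 0.35. Pml, which organises nuclear bodies, was at 122, 131 and 125 CPM in TAA+celecoxib and no higher than 104 CPM in the TAA libraries. The 2 that were lower, named after their values were seen, were the membrane proteins Ifitm1 and Ifitm2. Ifitm1 was at 207, 184 and 206 CPM in TAA+celecoxib, below the 224, 232 and 286 CPM of the TAA libraries. In TAA against control, 1 of the 37 was higher and 5 lower, against 2.85% and 3.15% of all genes, with a median of -0.23.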

How the data were processed

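RNA sequencing of spleen gave 9 libraries, 3 per group, grouped by the treatment label. The authors deposited 2 tables: whole-number read counts for each gene, and FPKM values, in which the deposited counts are scaled by gene length and library. The submitters' processing notes name HISAT2 2.0.5 and the assembly mRatBN7.2. How reads were counted, against which annotation and whether by strand is not given in the sources used here. Promoter windows are those of RefSeq for GRCr8 and were not mixed with the files' coordinates, whose build is unresolved.

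Counts were tested in R 4.3.3 with edgeR 4.0.16 (quasi-likelihood F test, 2-sided, all 9 libraries in 1 fit by group, TMM, filterByExpr with a minimum count of 10 and total of 15), adjusted by Benjamini-Hochberg over 15954 genes. SE is the log2 fold change divided by the root of F. DESeq2 1.42.0, limma-voom (limma 3.58.1), RLE scaling, no filter, fits of 2 groups, a replicate block and left-out libraries were alternatives. The scripts were tested on simulated data. With 3 libraries a group, an exact permutation test of 1 gene cannot go below p = 0.1. Relations to cell type scores used log2(CPM + 0.1) and an exact permutation test over 9 libraries, not kept within groups, in Python 3.11.15 (NumPy 2.4.6, SciPy 1.17.1).

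Members, gene lists and tests were chosen with earlier results of these data known. Members given in every library are the factors Stat2, Irf9, Irf7 and Irf1, the ISG15 and Mx genes, the 2 of highest mean CPM in each other role group, and in each comparison the 4 of smallest p and the 2 largest in the direction opposite to the median. Further members were printed to show the promoters or a neighbour, after their values were seen. Some listed genes, such as Ddx60, were not analysed here. Another item is not reported here. As no label says that libraries are separate animals, p-values measure only the spread between these samples, which may be technical. No label names a batch, and none says that replicate numbers pair libraries. Deviations of same-numbered libraries from their group means correlated at 0.475, 0.178 and 0.337 for control with TAA+celecoxib. Differently numbered libraries of these groups had -0.402 to 0.133. The numbers may thus pair these libraries, which the design does not say. The values cannot decide it, as deviations within a group of 3 are not independent and control 1 and TAA+celecoxib 1 both stood apart. For control with TAA the same-numbered values were 0.240, -0.0214 and 0.189, and for TAA with TAA+celecoxib 0.120, -0.213 and 0.0331.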

Additional observations from a re-analysis of the deposited data

How the results depend on the processing

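Directions of the medians of members held under every alternative run, and so did the count of members between the TAA groups within 1.5 times, except for left-out libraries. DESeq2 called 53, 25 and 27 genes in place of 0 in TAA against control, TAA+celecoxib against TAA and TAA+celecoxib against control, and the fit of 2 groups called 1 gene in the last. With 1 library left out at a time, edgeR called 0 to 1, 0 to 3 and 0 to 2 genes in that order, with 1 without TAA+celecoxib 2 and 3 and 2 without TAA 1. Members with an unadjusted p under 0.05 in TAA against control went from 9 to 5 with limma-voom, 14 in the fit of 2 groups and 3 to 13 with 1 library left out, with 3 each without control 1 and without TAA 3, and 4 each without control 2, TAA 1 and TAA 2. Between the TAA groups they went from 20 to between 13 (without TAA+celecoxib 1) and 25 (without TAA+celecoxib 3), and their median from 0.56 to between 0.43 and 0.79. In TAA+celecoxib against control they went from 5 to 3 in the fit of 2 groups, to 2 without control 1 and TAA+celecoxib 1 together, and to between 1 and 17 with 1 library left out; there the median of 0.29 became 0.0387 without both and 0.11 to 0.51 with 1 left out. The median of TAA against control was -0.35 to -0.24. Shares of all genes with an unadjusted p under 0.05 in these alternatives are not given here. A changed count of members may thus not be particular to them. The cause was not tested.

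Folds of named members reversed where they were small or rested on 1 library. Between the TAA groups these were Gbp2 (from -0.01 to 0.052 without control 1 and TAA+celecoxib 1 together, and -0.11 to 0.058 with 1 library left out), Rsad2 (-0.45 to 0.95) and Ifi27 (-0.025 to 0.72). In TAA+celecoxib against control, Isg15 went to -0.18 without both libraries and -0.42 to 0.54 with 1 left out, Usp18 to -0.11 to 0.60, and Mx1 to -0.0032 without both and -0.068 to 0.58. In all, 737 comparisons of the fold of a named member or of Ifng with an alternative kept their direction and side, 12 reversed and 2 passed the threshold.

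With the replicate block, edgeR called 0 genes in each comparison and 11, 20 and 6 members had an unadjusted p under 0.05. Shares of all genes at that p with the block are not given here either. The block changed no call and moved no count by over 1.5 times. Counts of the type I and III interferon ligands were too low at this depth to show a change.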
